A study of Arabidopsis thaliana with 9 samples.

Results

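The genes of the *Arabidopsis* mitochondrial genome were followed through RNA-seq of whole seedlings of 3 genotypes, *bdr1,2,3*, *fpa* and wild type. The members were all rows of the count table whose identifier begins with ATMG, 146 of the 33602 genes listed. Of these, 45 had a summed count of at least 10 over the 9 libraries and were tested, 18 had between 1 and 9 counts, and 83 were at 0 in every library. Each genotype had 3 libraries.

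All plants were Col-0, grown on plates for 8 days at 21 °C under 16 h of light and 8 h of dark. All were stratified for 4 days at 4 °C. The *bdr1,2,3* plants carried T-DNA insertions in *BDR1* (SALK_142108C), *BDR2* (CS852350) and *BDR3* (SALK_059905), the 3 genes of a family of nuclear proteins with a SPOC domain and a central domain like that of an elongation factor. The *fpa* plants carried *fpa-7*, an allele of the gene for FPA, a nuclear RNA-binding protein. All of the mutated genes are nuclear, and the comparisons ask whether the counts of mitochondria-encoded genes differed between the genotypes. Nothing in the labels says whether replicates were separate plates or sowings, so p-values measure the spread between these libraries only.

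Plant mitochondria keep a small genome that encodes a few subunits of the respiratory complexes and of the ATP synthase, factors of cytochrome c assembly, some ribosomal proteins, and the ribosomal and transfer RNAs of the organelle. Most subunits of the same complexes, and the RNA polymerases, splicing and editing factors that make mitochondrial transcripts, are encoded in the nucleus. Mature mitochondrial transcripts of plants are mostly not polyadenylated, and a tail marks them for decay, so an mRNA library holds only a remnant of them. In Col-0 a large piece of the mitochondrial genome also sits in chromosome 2 of the nucleus.

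The labels were checked first with the targeted genes. *BDR1* (AT5G25520) had 24, 49 and 13 counts in *bdr1,2,3* and 205 to 1098 in wild type, a log2 fold change of -4.81 ± 0.25 (SE; edgeR adjusted p = 7.59e-08). *BDR2* (AT5G11430) was also lower in *bdr1,2,3*, by a log2 fold change of -0.85 ± 0.18 (edgeR adjusted p = 0.0174), and *BDR3* (AT2G25640) had -0.76 ± 0.29 (edgeR adjusted p = 0.225). *FPA* (AT2G43410) had 773 to 803 counts in *fpa* and 298 to 1693 in wild type (log2 fold change -0.39 ± 0.18, edgeR adjusted p = 0.253), so its count does not check that label. Library totals ran from 14557440 to 24810614 in *bdr1,2,3*, from 16995153 to 20384978 in *fpa* and from 8676610 to 26861793 in wild type. Wild-type replicate 12 was the shallowest library and had the lowest TMM factor (0.817, against 0.995 to 1.07 in the others). Leaf and root hair genes (*RBCS1A*, *CAB1*, *EXPA7*, and AT5G49270) were present in every library, and the flower gene *AP1* was at 0 in all. The flower gene *AG* had 0 to 9 counts, and the seed storage genes AT5G44120 and *CRU3* had 1 to 124 and 2 to 84.

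Mitochondria-encoded genes took well under 1% of any library. They held 0.0417, 0.0588 and 0.0415% of the counts in *bdr1,2,3* (replicates 2, 4 and 7), 0.0351, 0.0259 and 0.0312% in *fpa* (replicates 3, 6 and 8), and 0.0394, 0.0460 and 0.0672% in wild type (replicates 1, 5 and 12). The 3 *fpa* libraries were the lowest of the 9, below every library of *bdr1,2,3* and of wild type. The share averaged 0.0473 ± 0.00993% in *bdr1,2,3*, 0.0307 ± 0.00460% in *fpa* and 0.0509 ± 0.0145% in wild type (SD, n = 3 each). The *bdr1,2,3* libraries lay within the range of the wild-type libraries. The difference of means was -0.0202 percentage points for *fpa* against wild type and -0.0120 without wild-type replicate 12. It was 0.0166 for *bdr1,2,3* against *fpa* and 0.0109 without *bdr1,2,3* replicate 4. For *bdr1,2,3* against wild type it was -0.00354, and 0.00462 without wild-type replicate 12. Exact 95% binomial intervals, which cover counting error only, were narrow beside the spread between libraries, as in *fpa* replicate 6 (0.0251 to 0.0266%) and in wild-type replicate 12 (0.0655 to 0.0689%). The share is a sum over the members and was not tested. In whole seedlings, fewer cells rich in mitochondria and less mitochondrial RNA per cell cannot be told apart.

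**Figure D1:**
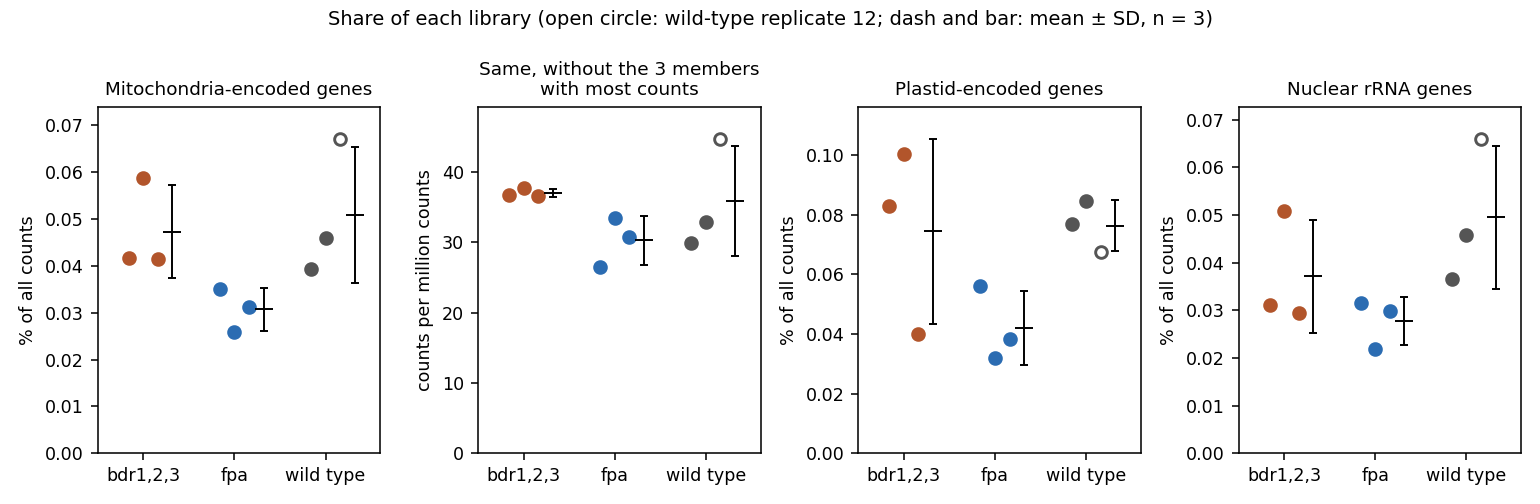
Share of each library in mitochondria-encoded genes, in the same genes without the 3 with most counts (CPM), in plastid-encoded genes and in nuclear rRNA genes, with *bdr1,2,3*, *fpa* and wild type from left to right. Points are libraries (open circle, wild-type replicate 12), and dashes with bars are the mean ± SD of 3 libraries; the 3 *fpa* libraries are the lowest in the first panel, at 0.0259 to 0.0351%.

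Nearly all of this share came from few genes. ATMG00020, ATMG01390 and ATMG00030 together gave 91.2 to 93.6% of the mitochondrial counts in *bdr1,2,3*, 87.1 to 92.4% in *fpa* and 92.4 to 93.3% in wild type. These identifiers are given without names, because the RefSeq annotation does not tie them to its own mitochondrial genes, among which it lists 3 rRNA genes (*rrn26*, *rrn18* and *rrn5*). The remaining members gave 36.6, 37.7 and 36.6 CPM (counts in each 1000000 of the library's total) in *bdr1,2,3*, 26.5, 33.5 and 30.7 in *fpa* and 29.9, 32.9 and 44.7 in wild type. Without the 3 largest genes the *fpa* and wild-type libraries overlapped, while the *bdr1,2,3* libraries were still above all those of *fpa*.

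Nuclear rRNA moved with the mitochondrial share within each genotype. Nuclear rRNA genes took 0.0311, 0.0508 and 0.0294% of counts in *bdr1,2,3*, 0.0314, 0.0220 and 0.0298% in *fpa* and 0.0367, 0.0458 and 0.0660% in wild type. The library highest in mitochondrial genes in each genotype was also the highest in nuclear rRNA. Plastid-encoded genes took 0.0830, 0.100 and 0.0398% in *bdr1,2,3*, 0.0560, 0.0318 and 0.0384% in *fpa* and 0.0768, 0.0845 and 0.0675% in wild type, so *fpa* was below wild type there too. Within *bdr1,2,3* and within *fpa* the plastid share ranked the libraries as the mitochondrial share did. In wild type it did not, since replicate 12 was the lowest there in plastid genes and the highest in mitochondrial genes. The counts of ATMG00020 divided by those of the nuclear rRNA gene AT3G41768, which holds most of the counts of that class, were 0.743, 0.600 and 0.767 in *bdr1,2,3*, 0.596, 0.575 and 0.535 in *fpa* and 0.565, 0.516 and 0.557 in wild type. Against this nuclear rRNA the *fpa* and wild-type libraries overlapped, and the *bdr1,2,3* libraries were the 3 highest. AT3G41768 itself had a log2 fold change of -0.57 ± 0.27 in *bdr1,2,3* against wild type (edgeR adjusted p = 0.344), and a lower count of it raises this ratio. The rarer genes of this class did not move alike in that comparison. AT3G41979, with 95 counts in all, was at 0 in every *bdr1,2,3* library (-7.57 ± 1.29, edgeR adjusted p = 0.00549). AT2G01020 had 0.86 ± 0.54 (0.492) and AT2G01010 had 0.57 ± 1.02 (0.849). The part of rRNA carried into the libraries in the mitochondrial result was not tested.

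The unique-alignment filter bears on which mitochondrial genes can be counted. Only uniquely aligned 49-base reads were counted, and a read that fits both the organelle and chromosome 2 was dropped. In the RefSeq assembly TAIR10.1, 70.6% of all 49-base windows of the mitochondrial record occur again in the nuclear chromosomes, nearly all of them in chromosome 2 (70.4%), and 28.9% are found once in the genome. Of 33 protein genes in that record, 22 have more than 90% of their windows in the nucleus and 5 have none there (*ccmB*, *nad9*, *cox1*, *nad4L* and *atp4*). The rRNA genes are the contrast, with 99.97% of windows found once in *rrn26*, 99.6% in *rrn18* and 100% in *rrn5*. For *cob* (apocytochrome b), *cox3*, *atp1*, *atp9* and *nad3*, no window is found once. The mitochondrial sequence of the authors' build was not used here, and its differences from TAIR10.1 can move these shares for single genes. The counts depart from the windows for some of these genes. The identifiers annotated as cytochrome c oxidase subunit 3 (ATMG00730) and ATP synthase subunit 9 (ATMG01080) had 177 and 223 uniquely aligned reads. Another identifier for ATP synthase subunit 9 (ATMG01090) had 16, and that for ATP synthase subunit 1 (ATMG01190) had 5. The windows therefore do not give what could be counted for each gene in these data.

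**Figure D2:**
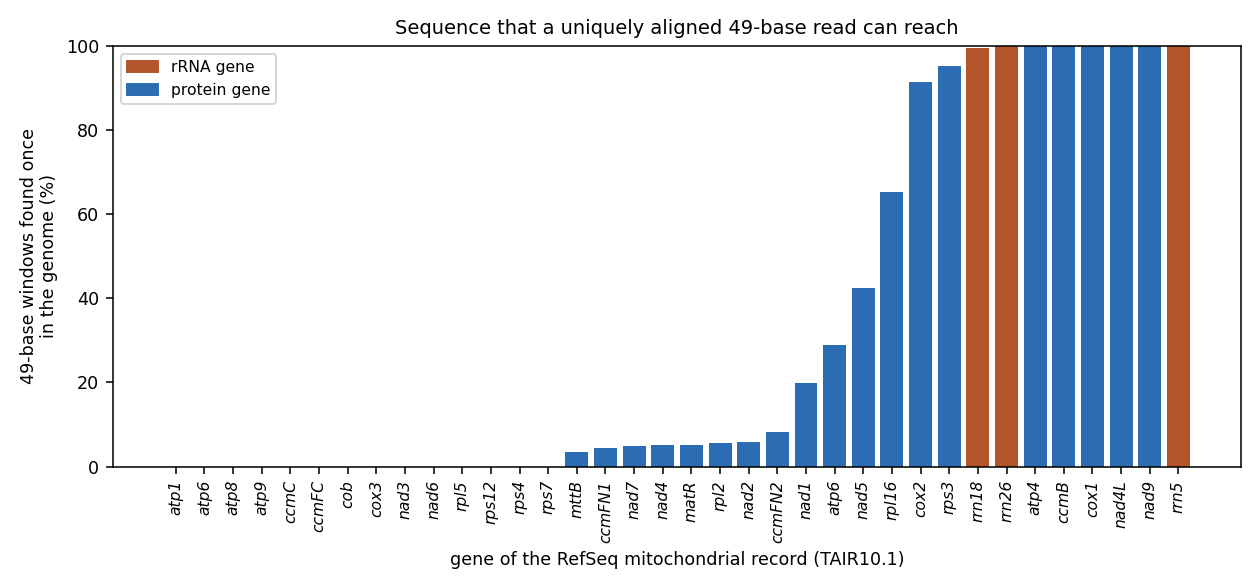
Percent of 49-base windows found once in the TAIR10.1 genome, by gene of the RefSeq mitochondrial record (rRNA genes and protein genes in separate colours; *atp6* has 2 entries). The 3 rRNA genes stand at 99.6 to 100%, and many protein genes stand at 0.

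Many annotated pairs had more counts at the nuclear locus. RefSeq notes, for 55 loci of chromosome 2, a best protein match to a mitochondrial identifier or that the locus is its pseudogene. These loci are called copies here. They point to 53 identifiers, of which 14 were tested and 34 were at 0. The 53 identifiers had 716 counts in all and the 55 loci had 2312, so the nuclear loci held 76.4% of the counts of such pairs. The other 93 identifiers had 71778 counts, with 31 tested and 49 at 0. Apocytochrome b (ATMG00220), the core of complex III, was at 0 in all libraries, while its chromosome 2 copy AT2G07727 had 51 counts. The ATP synthase subunit ATMG01190 had 5 counts and its copy AT2G07698 had 290. Identifiers for NADH dehydrogenase 1A (ATMG01275), NADH dehydrogenase 3 (ATMG00990) and the ribosomal proteins ATMG00290 (S4) and ATMG01270 (S7) were at 0 as well. The opposite held for cytochrome c oxidase subunit 3 (ATMG00730), with 177 counts against 45 in AT2G07687, and for ATP synthase subunit 9 (ATMG01080), with 223 against 10 in AT2G07671. A count of 0 here speaks of uniquely aligned reads, not of the transcript.

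**Figure D3:**
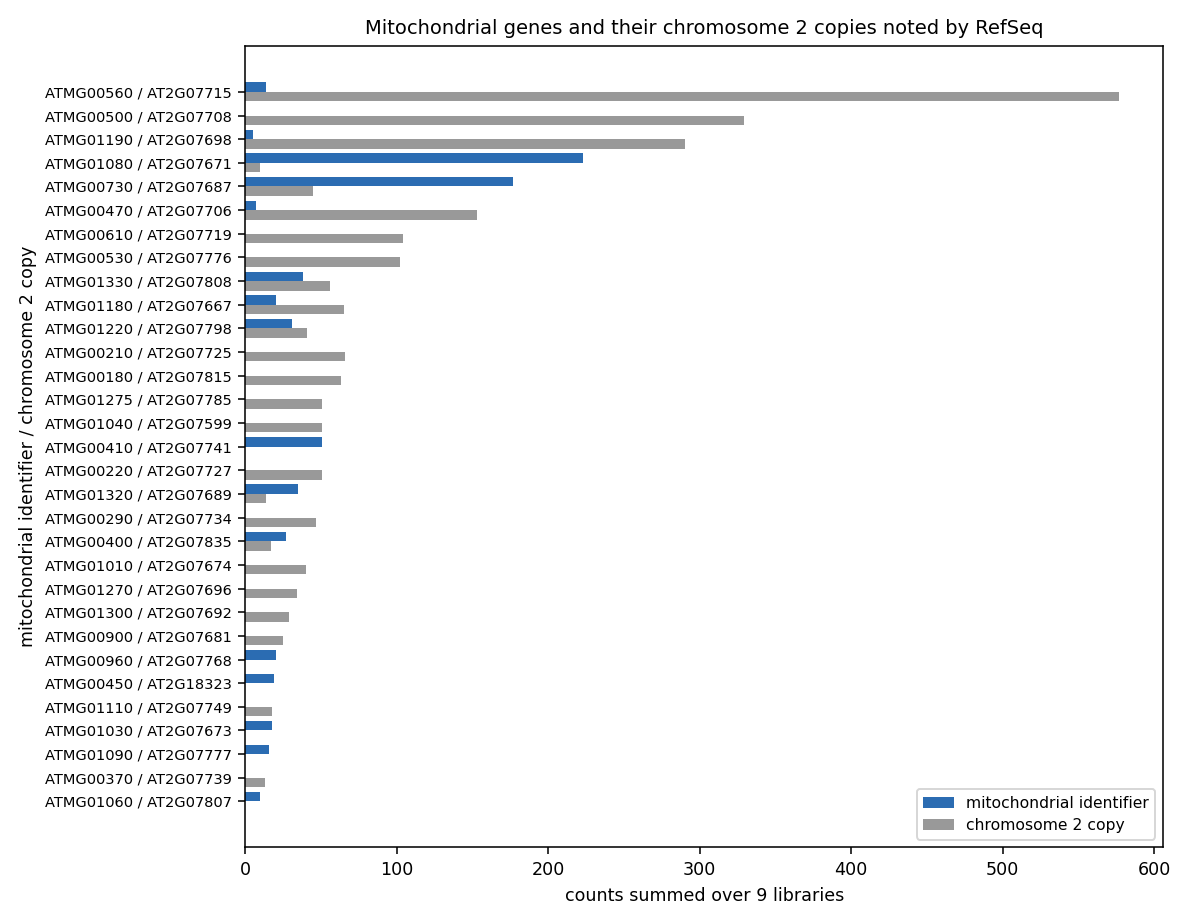
Counts summed over 9 libraries for mitochondrial identifiers and their chromosome 2 copies, for pairs with at least 10 counts on either side. A copy is a locus noted by RefSeq as a best protein match or a pseudogene. The copy AT2G07715 has 577 counts against 14 in ATMG00560, and ATMG01080 has 223 against 10 in AT2G07671.

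The split between organelle and nuclear locus overlapped between the genotypes. The chromosome 2 loci held 73.7, 78.4 and 75.3% of the counts of such pairs in *bdr1,2,3*, 75.7, 74.6 and 81.3% in *fpa* and 79.7, 74.2 and 74.7% in wild type. Of the 55 loci 25 were tested, and none was called in any comparison by edgeR (lowest adjusted p = 0.258). By direction and comparison, edgeR called 0.546 to 1.97% of all genes. With so few loci at such shares, the lack of calls does not decide whether the loci differed between genotypes.

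In *fpa*, the genes with most mitochondrial counts were lower than in wild type. ATMG00020 and ATMG00030 passed the test, ATMG01390 lay just outside it, and no member was called higher. That is 2 of 45 members called lower, where 1.75% of all 22725 tested genes were lower, and 0 of 45 called higher, where 1.19% were higher (edgeR quasi-likelihood test, Benjamini-Hochberg adjusted p under 0.05 over all genes). At an unadjusted p under 0.05, 6 members were lower and 0 higher, beside 10.2% and 8.8% of all genes. DESeq2 called 4 members lower, beside 3.71% of all genes, and 0 higher, beside 2.71%.

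ATMG00020 gave 179, 117 and 154 CPM, here on the TMM-scaled library size, in *fpa*, against 202, 236 and 447 CPM in wild type. All *fpa* libraries were below all wild-type libraries, and the log2 fold change was -0.97 ± 0.25 (SE; edgeR adjusted p = 0.0491, range over the alternatives 0.00796 to 0.204). ATMG00030 gave 28.1, 26.8 and 30.0 CPM in *fpa*, against 38.8, 42.0 and 79.7 CPM in wild type. It was lower in *fpa* by a log2 fold change of -0.90 ± 0.23, again with no overlap (edgeR adjusted p = 0.0448, range 0.00967 to 0.167). ATMG01390 gave 104, 67.3 and 89.1 CPM in *fpa*, against 117, 151 and 241 CPM in wild type, also without overlap. Its log2 fold change was -0.96 ± 0.26 (edgeR adjusted p = 0.0622, range 0.0140 to 0.231), close in size to those of the called genes.

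These calls depend on wild-type replicate 12, the highest library for all 3 genes. Without it the log2 fold changes were -0.53 for ATMG00020 (edgeR adjusted p = 0.0838), -0.50 for ATMG00030 (0.0731) and -0.62 for ATMG01390 (0.133), and 0 of 45 members were called. Leaving out any 1 of the *fpa* libraries also left 0 called, and leaving out wild-type replicate 5 left 1. The nuclear rRNA gene AT3G41768 had a log2 fold change of -1.03 ± 0.27 in *fpa* (edgeR adjusted p = 0.0546), and its part in the result was not tested.

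The next members by p were ATMG00080 and ATMG00070. ATMG00080 gave 0.621, 0.213 and 0.952 CPM in *fpa*, against 1.51, 1.76 and 2.82 CPM in wild type, without overlap (log2 fold change -1.70 ± 0.55, edgeR adjusted p = 0.111, DESeq2 adjusted p = 0.0389). ATMG00070 gave 0.904, 0.372 and 0.238 CPM in *fpa*, against 1.30, 3.03 and 0.846 CPM in wild type, and here the groups overlapped. Its log2 fold change was -1.86 ± 0.61 (edgeR adjusted p = 0.114), and -1.14 without wild-type replicate 5 (0.411). Both had under 250 counts in all, so these values carry large errors.

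**Figure D4:**
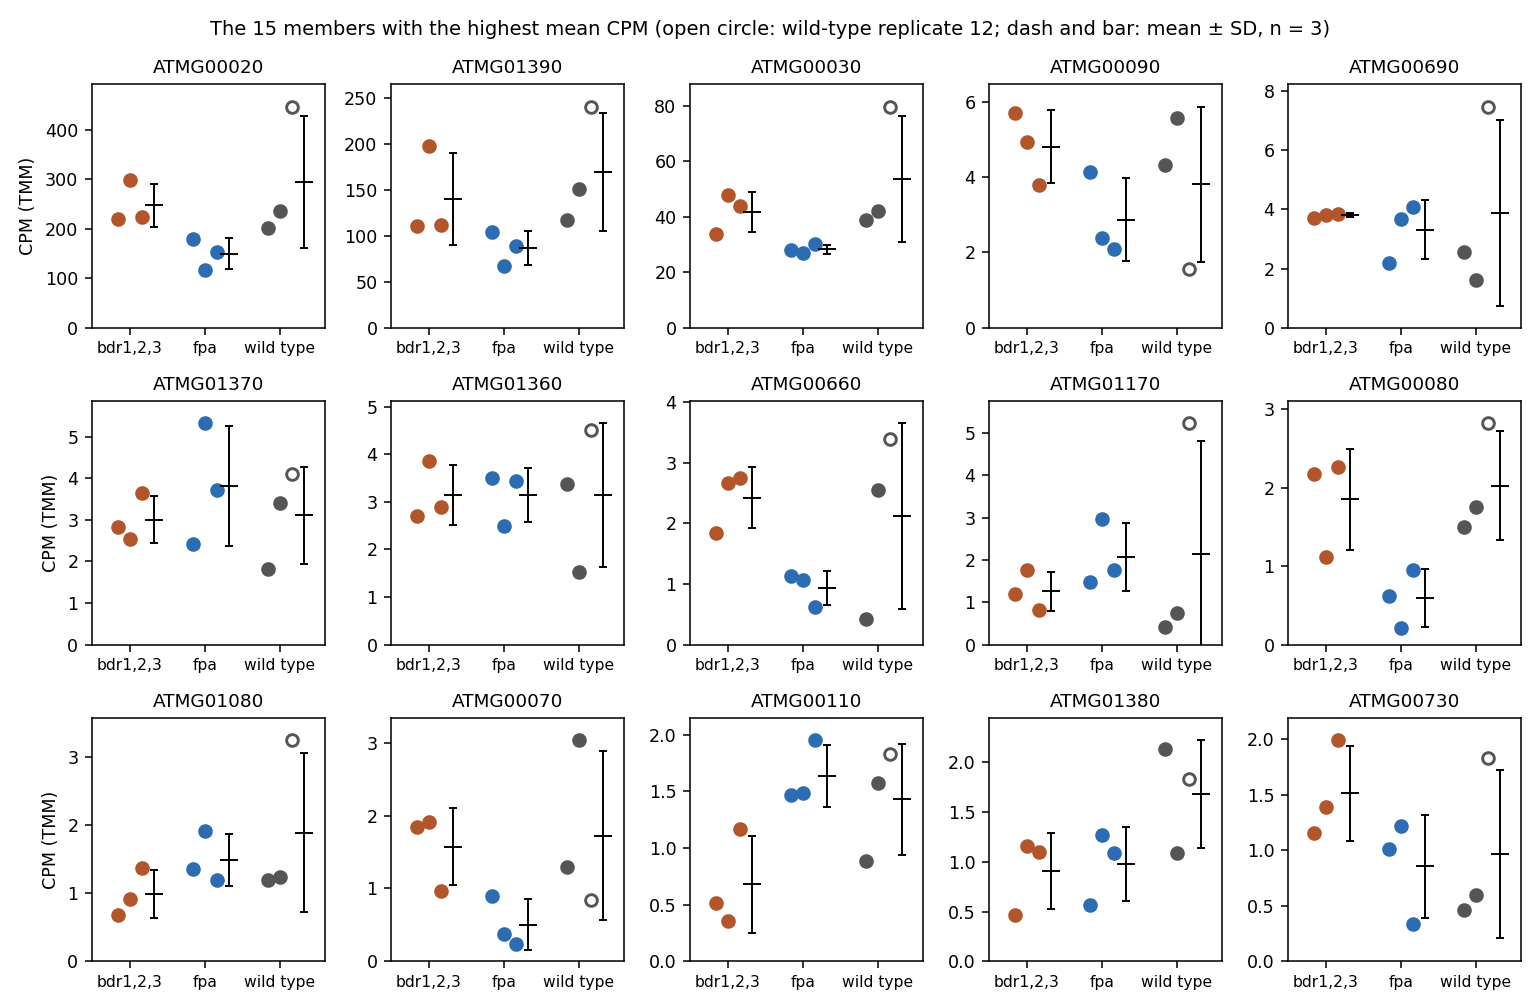
CPM on the TMM scale in each library for the 15 members with the highest mean CPM, with *bdr1,2,3*, *fpa* and wild type from left to right; bars are the mean ± SD of 3 libraries and are cut off at 0. In ATMG00020, ATMG01390, ATMG00030 and ATMG00080 the *fpa* libraries lie below all wild-type libraries.

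Over the whole list, the *fpa* values leaned low. The median log2 fold change of the 45 tested members was -0.76, beside 0.01 over all tested genes, and 30 of 45 were below 0, beside 48.6% of all genes. Without wild-type replicate 12 the median was -0.50. In 8 of 45 members all *fpa* libraries were below all wild-type libraries, beside 12.4% of all genes, and in 3 they were above, beside 13.2%. The lean was not shared by all the larger genes. Among the 7 members with 500 counts or more, ATMG01360 had 0.07 ± 0.38, ATMG00690 had -0.09 ± 0.45 and ATMG01370 had 0.34 ± 0.37, while ATMG00090 had -0.49 ± 0.39 (log2 fold change ± SE, adjusted p 0.527 to 0.945 by edgeR). Of 90 tested plastid-encoded genes, edgeR called 7 lower in *fpa* and 0 higher, beside 1.75% and 1.19% of all genes. The median log2 fold change of these 90 was -0.98.

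Annotated subunits of the respiratory complexes and the ATP synthase did not pass in *fpa*. Cytochrome c oxidase subunit 3 (ATMG00730) gave 1.02, 1.22 and 0.333 CPM in *fpa*, against 0.468, 0.599 and 1.83 CPM in wild type (log2 fold change -0.01 ± 0.70). ATP synthase subunit 9 (ATMG01080), part of the proton-conducting ring, gave 1.36, 1.91 and 1.19 CPM in *fpa*, against 1.19, 1.23 and 3.24 CPM in wild type (-0.25 ± 0.51). Another identifier for this subunit, ATMG01090, had only 16 counts over all libraries (-1.53 ± 1.69, edgeR adjusted p = 0.669). ATPase subunit 6-1 (ATMG00410) had 4, 2 and 2 counts in *fpa*, against 1, 18 and 5 in wild type, and NADH dehydrogenase 2B (ATMG01320) had 1, 2 and 3 in *fpa*, against 0, 8 and 4 in wild type. They had 51 and 35 counts over all 9 libraries.

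In *bdr1,2,3*, no mitochondrial member passed the test against wild type. The count was 0 of 45 in each direction, where 1.76% of all genes were lower and 0.546% higher (edgeR adjusted p under 0.05). At an unadjusted p under 0.05, 0 members were lower and 0 higher, beside 8.41% and 6.13% of all genes. DESeq2 also called 0 in each direction, beside 2.85% of genes lower and 1.08% higher. The median SE was 0.87 over the members and 0.22 over all tested genes, so a given change was harder to call among members. The median log2 fold change was -0.27 over the 45 members, beside 0.01 over all tested genes, -0.04 without wild-type replicate 12 and -0.17 without *bdr1,2,3* replicate 2. Below 0 were 29 of 45, beside 48.6% of all genes.

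ATMG00020 gave 221, 299 and 223 CPM in *bdr1,2,3*, against 202, 236 and 447 CPM in wild type (log2 fold change -0.25 ± 0.25, edgeR adjusted p = 0.699). ATMG01390 gave 111, 198 and 112 CPM in *bdr1,2,3*, against 117, 151 and 241 CPM in wild type (-0.27 ± 0.26), and ATMG00030 gave 33.7, 47.7 and 44.0 CPM, against 38.8, 42.0 and 79.7 CPM (-0.34 ± 0.23). Their ranges overlapped in each case. The approximate 95% interval of the log2 fold change of ATMG00020, from its SE, runs from -0.74 to 0.24.

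The smallest p in *bdr1,2,3* belonged to ATMG00110, with 0.514, 0.359 and 1.17 CPM in *bdr1,2,3*, against 0.883, 1.57 and 1.83 CPM in wild type (log2 fold change -1.09 ± 0.55, edgeR adjusted p = 0.378). Without *bdr1,2,3* replicate 7 it was -1.67 (0.227). ATMG00670 leaned the other way, with 1.71, 1.75 and 1.37 CPM in *bdr1,2,3*, against 0.416, 0.112 and 1.83 CPM in wild type (1.35 ± 0.75, edgeR adjusted p = 0.428). Wild-type replicate 12 made these groups overlap, and without it the log2 fold change of ATMG00670 was 2.66 (edgeR adjusted p = 0.0551), while without wild-type replicate 5 it was 0.69 (0.702). ATMG00400 had 0, 14 and 7 counts in *bdr1,2,3*, against 1, 0 and 1 in wild type, a ratio of summed counts per total of 9.24 with an exact 95% counting interval of 2.26 to 81.3. One *bdr1,2,3* library was at 0, and the edgeR adjusted p was 0.454. ATP synthase subunit 9 (ATMG01080) had a log2 fold change of -0.86 ± 0.52 and ATMG01380 had -0.88 ± 0.54, with edgeR adjusted p of 0.480 and 0.484. For ATMG01080 it was -0.32 without wild-type replicate 12 (0.845), and for ATMG01380 -0.55 without *bdr1,2,3* replicate 2 (0.797). In 3 of 45 members (ATMG00520, ATMG00960 and ATMG01220, all with 31 counts or fewer) the *bdr1,2,3* libraries were below all wild-type libraries, and in 0 above, beside 9.15% and 9.02% of all genes.

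**Figure D5:**
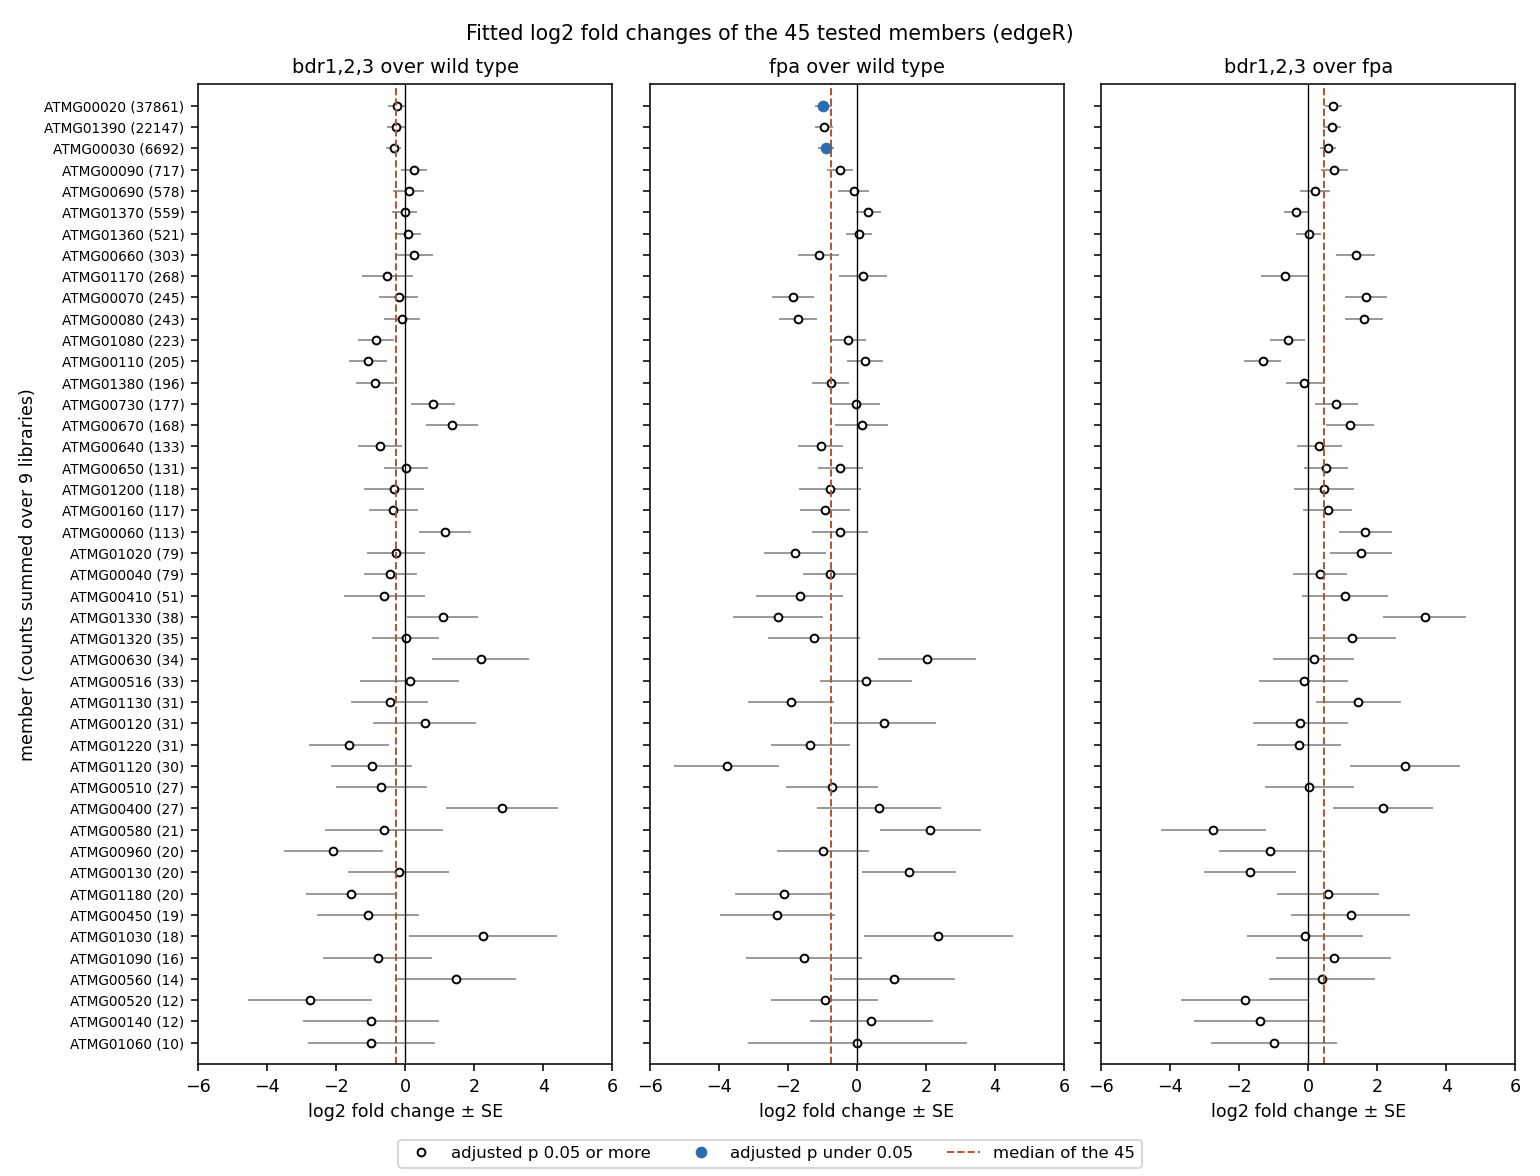
Fitted log2 fold change ± SE of the 45 tested members in *bdr1,2,3* over wild type, *fpa* over wild type and *bdr1,2,3* over *fpa*, ordered by summed count from the top. Filled points passed an adjusted p of 0.05, which only ATMG00020 and ATMG00030 did in *fpa*; the dashed line is the median of the 45 (-0.27, -0.76 and 0.45).

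The mutants were also compared with each other, since both comparisons above share the wild-type libraries. No member was called: 0 of 45 lower in *bdr1,2,3* than in *fpa*, where 1.97% of all genes were, and 0 of 45 higher, where 1.27% were (edgeR). At an unadjusted p under 0.05, 8 members were higher and 1 lower, beside 6.73% and 7.84% of all genes. DESeq2 called 0 as well, beside 3.06% of genes lower and 2.13% higher. Here too the median SE was larger over the members (0.89) than over all tested genes (0.22). The median log2 fold change was 0.45 (0.19 without *fpa* replicate 3), beside 0.00 over all tested genes, and 30 of 45 were above 0, beside 50.0% of all genes. In 9 of 45 members all *bdr1,2,3* libraries were above all *fpa* libraries, beside 11.3% of all genes, and in 3 (ATMG00110, ATMG00130 and ATMG00580) they were below, beside 12.02%.

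This comparison shares its *fpa* libraries with that of *fpa* against wild type, so they are not independent. ATMG00020 gave 221, 299 and 223 CPM in *bdr1,2,3*, against 179, 117 and 154 CPM in *fpa* (log2 fold change 0.72 ± 0.25, edgeR adjusted p = 0.158). It was called when only these genotypes were fitted (adjusted p = 0.0104). ATMG01390 had 0.69 ± 0.26 (edgeR adjusted p = 0.206) and ATMG00080 had 1.61 ± 0.55 (0.150), both without overlap. That of ATMG01390 was 0.36 without *bdr1,2,3* replicate 4 (0.674). ATMG00070 gave 1.84, 1.91 and 0.961 CPM in *bdr1,2,3*, against 0.904, 0.372 and 0.238 CPM in *fpa* (1.67 ± 0.61, edgeR adjusted p = 0.188). ATMG01330 had 10, 12 and 5 counts in *bdr1,2,3*, against 1, 0 and 1 in *fpa*, a ratio of summed counts per total of 12.02 with an exact 95% counting interval of 3.02 to 104. It is the identifier of which AT2G07808 on chromosome 2 is noted as a pseudogene, and its edgeR adjusted p was 0.175. ATMG00110 was the member on the other side, with 0.514, 0.359 and 1.17 CPM in *bdr1,2,3*, against 1.47, 1.49 and 1.95 CPM in *fpa* (-1.32 ± 0.54, edgeR adjusted p = 0.253).

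Nuclear genes of the mitochondrion were set beside the organelle's own. Of 31 nuclear subunits of the respiratory complexes and the ATP synthase, 0 were called by edgeR and 0 by DESeq2 in any comparison. By direction and comparison, 0.546 to 1.97% of all genes were called by edgeR and 1.08 to 3.71% by DESeq2. At an unadjusted edgeR p under 0.05, 2 subunits were lower and 0 higher in *bdr1,2,3* against wild type, beside 8.41% and 6.13% of all genes. In *fpa* against wild type 3 were lower and 1 higher, beside 10.2% and 8.8%. Between the mutants 0 differed, beside 7.84% of all genes lower and 6.73% higher in *bdr1,2,3*. The median log2 fold change of these subunits was -0.18 in *bdr1,2,3* and -0.09 in *fpa* against wild type. The complex I subunit AT5G11770 had -0.50 ± 0.21 in *bdr1,2,3* and -0.62 ± 0.21 in *fpa*, with edgeR adjusted p of 0.288 and 0.129. Of 16 nuclear factors of mitochondrial transcription, splicing, editing and RNA decay, 0 were called in any comparison by edgeR or DESeq2. At an unadjusted edgeR p under 0.05, 2 factors were lower in *bdr1,2,3* and 1 in *fpa* against wild type. Between the mutants 1 was lower in *bdr1,2,3*. No factor was higher in any comparison, and the shares of all genes were those given for the subunits. The polyribonucleotide nucleotidyltransferase AT5G14580, an enzyme that trims and degrades RNA, had -0.61 ± 0.21 in *bdr1,2,3* against wild type (edgeR adjusted p = 0.190).

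Of 10 nuclear genes that respond to mitochondrial stress, 9 were tested. The list was chosen with earlier results of these data known, so the shares set beside its counts are no test of it. Against wild type, edgeR called 1 higher and 0 lower in *bdr1,2,3*, beside 0.546% and 1.76% of all genes. In *fpa* it called 0, beside 1.19% higher and 1.75% lower. Between the mutants, 1 was higher in *bdr1,2,3* and 0 lower, beside 1.27% and 1.97%. The median log2 fold change against wild type was 0.23 in *bdr1,2,3* (range -2.54 to 4.09) and 0.22 in *fpa* (range -1.88 to 1.41). AT5G09570, which encodes a Cox19-like CHCH family protein, had 51, 81 and 43 counts in *bdr1,2,3*, 5, 7 and 4 in *fpa* and 6, 1 and 1 in wild type. Its log2 fold change was 4.09 ± 0.67 against wild type (edgeR adjusted p = 0.00268) and 3.29 ± 0.60 against *fpa* (0.00529), and *fpa* and wild type did not separate (0.81 ± 0.77, 0.613). AT2G21640, annotated as a marker of oxidative stress, had 77, 49 and 47 counts in *bdr1,2,3*, 46, 59 and 58 in *fpa* and 27, 17 and 9 in wild type. It had log2 fold changes of 1.40 ± 0.40 in *bdr1,2,3* and 1.41 ± 0.40 in *fpa* against wild type, with edgeR adjusted p of 0.0976 and 0.0729. The alternative oxidase *AOX1A* (AT3G22370), the usual reporter of this response, had -0.27 ± 0.14 in *bdr1,2,3* and 0.22 ± 0.14 in *fpa* against wild type, with edgeR adjusted p of 0.397 and 0.436.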

How the data were processed

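RNA-seq counts of *bdr1,2,3*, *fpa* and wild-type seedlings were used, grouped by GEO's labels. Per the labels and the study's methods, the authors aligned 49 bp single-end reads to TAIR10 with TopHat2 2.0.8, kept unique alignments and deposited unnormalized counts per gene from featureCounts. The strand setting is not given in the sources used here, so overlapping genes can share reads. A second deposited table was not used, since it holds no ATMG rows.

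All genes with a summed count of at least 10 entered 1 edgeR 4.0.16 fit (R 4.3.3) of 3 genotypes, with TMM and the quasi-likelihood test, two-sided, Benjamini-Hochberg adjusted over 22725 genes. The SE is the log2 fold change over the square root of F. DESeq2 1.42.0 was an alternative. Counts were also simulated around the real means, with changes placed in the *bdr1,2,3* libraries. Under 500 counts, edgeR recovered 0 of 50 genes changed 2-fold and 16 of 50 changed 4-fold, and DESeq2 1 and 17. At 500 counts or more, edgeR recovered 40 and 47 of 50, and DESeq2 42 and 49. The changed genes were drawn from all tested genes of each class, so these rates are not those of the members. In *bdr1,2,3* against wild type the median SE was 0.37 over the 7 members with 500 counts or more, beside 0.22 over all tested genes. False calls were 3 of 106 with edgeR and 15 of 124 with DESeq2. Of the 45 tested members, 38 had under 500 counts over the 9 libraries, which limits their precision. Names of ATMG identifiers come from RefSeq's notes on the best protein match of chromosome 2 loci (45 of 146 identifiers). Windows of 49 bases were matched on both strands in TAIR10.1.

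Named members are the 15 with the highest mean CPM (some shown only in the plots), every called member and the 5 of smallest p in each comparison. The members and lists were chosen with earlier results of these data known. Figures were drawn with matplotlib 3.10.9.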

Additional observations from a re-analysis of the deposited data

How the results depend on the processing

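No paired analysis was possible because the genotypes share no replicate numbers. Members called lower in *fpa* against wild type numbered 2, but 4 with DESeq2, 1 with RLE size factors, 0 with filterByExpr (24 members tested), 0 with only these genotypes fitted, 0 at an adjusted p under 0.01, and 0 to 3 with 1 library left out. In *bdr1,2,3* against *fpa*, 2 of 38 tested members were called higher with only these genotypes fitted. Shares over all genes are given above for the main fit and for DESeq2, and counts from other settings have none beside them. The *fpa* median log2 fold change was -0.49 with no filter on low counts and -0.90 to -0.50 with 1 library left out. That of *bdr1,2,3* against *fpa* was 0.19 to 0.64 with 1 library left out, lowest without *fpa* replicate 3. The difference in share was -0.0202 percentage points for *fpa* against wild type (-0.0259 to -0.0120 with 1 library left out) and 0.0166 for *bdr1,2,3* against *fpa* (0.0109 to 0.0195). Without the 3 members with most counts, an alternative chosen after seeing the data, it was -0.000559 and 0.000674. That of *bdr1,2,3* against wild type was -0.00354, and -0.00927 to 0.00462 with 1 library left out. The stress response list gave 2 called genes in *bdr1,2,3* and 1 in *fpa* against wild type, and 2 between the mutants, with DESeq2, and 2 between the mutants with only these genotypes fitted. Nuclear subunits called in *fpa* against wild type were 0 to 1 with 1 library left out. Leaving out the rRNA members was not run, since no source used here ties them to identifiers. No alternative reversed a direction that exceeded the spread between replicates. Depth limits most members, since 24 of the 45 tested had under 100 counts in all.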
